A study of Macaca fascicularis with 16 samples.

Results

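Immediate early genes are genes that cells switch on within minutes of a stimulus, without new protein synthesis. The list followed here named 10 of them: FOS, FOSB, JUN, JUNB, EGR1, ATF3, IER2, DUSP1, ZFP36 and MYC. A member was taken as every probe set of the array whose only gene symbol in the platform annotation was that member. By this rule 7 of the 10 members were found, with 10 of 52865 probe sets, and 9 of these probe sets passed the filter on dim signals. FOSB, JUN and EGR1 were not analysed here. ATF3 had 3 probe sets, DUSP1 had 2, and FOS, JUNB, IER2, ZFP36 and MYC had 1 each. Each gene is described by its brightest probe set, and the others are given beside it.

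The data are expression arrays of endometrium, the lining of the uterus, from 16 postmenopausal female cynomolgus macaques, 1 array per animal. The animals were randomized to 4 arms of 4 for 4 months: micronized estradiol (0.25 mg for every 1800 kcal), tamoxifen (20 mg for every 1800 kcal), both drugs together at these doses (the combination), or placebo (control). Tamoxifen is a selective estrogen receptor modulator, a compound that blocks the estrogen receptor in some tissues and activates it in others. The comparisons ask what each drug does alone, what both do together, and whether the response to tamoxifen depends on estradiol.

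In many cells, growth factors and stress reach these genes through MAP kinases, which activate serum response factor with its ELK partners and CREB at promoters that are already open. FOS, FOSB, JUN and JUNB pair into the AP-1 transcription factor, EGR1 is a zinc finger factor, and the mRNAs of most of the class decay quickly. DUSP1 and ZFP36 belong to the feedback that ends the response. MYC, which drives genes of ribosome assembly and growth, is induced with the class in cultured cells. In the rodent uterus a single dose of estradiol raises Fos and Myc mRNA within hours, so an animal treated for months is a different setting.

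The values are signals scaled by the submitters to a common trimmed mean, and a change is a difference of arm means of log2(signal + 4.80). Changes carry a standard error (SE) from 1 limma fit to all 16 arrays, and a change was called where its Benjamini-Hochberg adjusted p over 31660 probe sets was below 0.05. The comparisons with control share the 4 control arrays, so they are not independent of each other. The tissue was described by marker lists, which, like all gene lists here, were chosen with earlier results of these data known. Of 12 annotated epithelium markers, 10 passed the filter (KRT7 and CDH1 did not), and all 11 stroma and all 14 smooth muscle markers passed, so the samples also held RNA of muscle. The summed muscle signal was 9572 on estradiol 4, against 63929 to 68816 on the other estradiol arrays, and 36286 on tamoxifen 1, against 63808 to 81591 on the other tamoxifen arrays. Values without both of these arrays are given where they change a result. Of 5 annotated blood markers only PF4 passed the filter, AHSP had a mean signal of 0.82, and their summed signal was between 70.4 and 157 on every array.

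FOS and DUSP1 fell the most of the members under estradiol, JUNB fell less, and MYC rose. Against control, estradiol lowered 3 of the 7 genes and raised 1. Among all 10706 genes tested, 13.2% were called lower and 16.5% higher in that comparison. The members were chosen with earlier results of these data known, so such shares are a scale and not a test. Tamoxifen lowered 2 of the 7 (7.64% of all genes lower, 8.59% higher), FOS and JUNB. The combination lowered 1, FOS (9.09% lower, 10.6% higher). The median change of the 7 genes was -0.62 with estradiol, -0.36 with tamoxifen and -0.40 with the combination, where the medians over all genes tested were 0.01, -0.02 and -0.01. ATF3, IER2 and ZFP36 passed the test in no comparison.

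**Figure D1:**
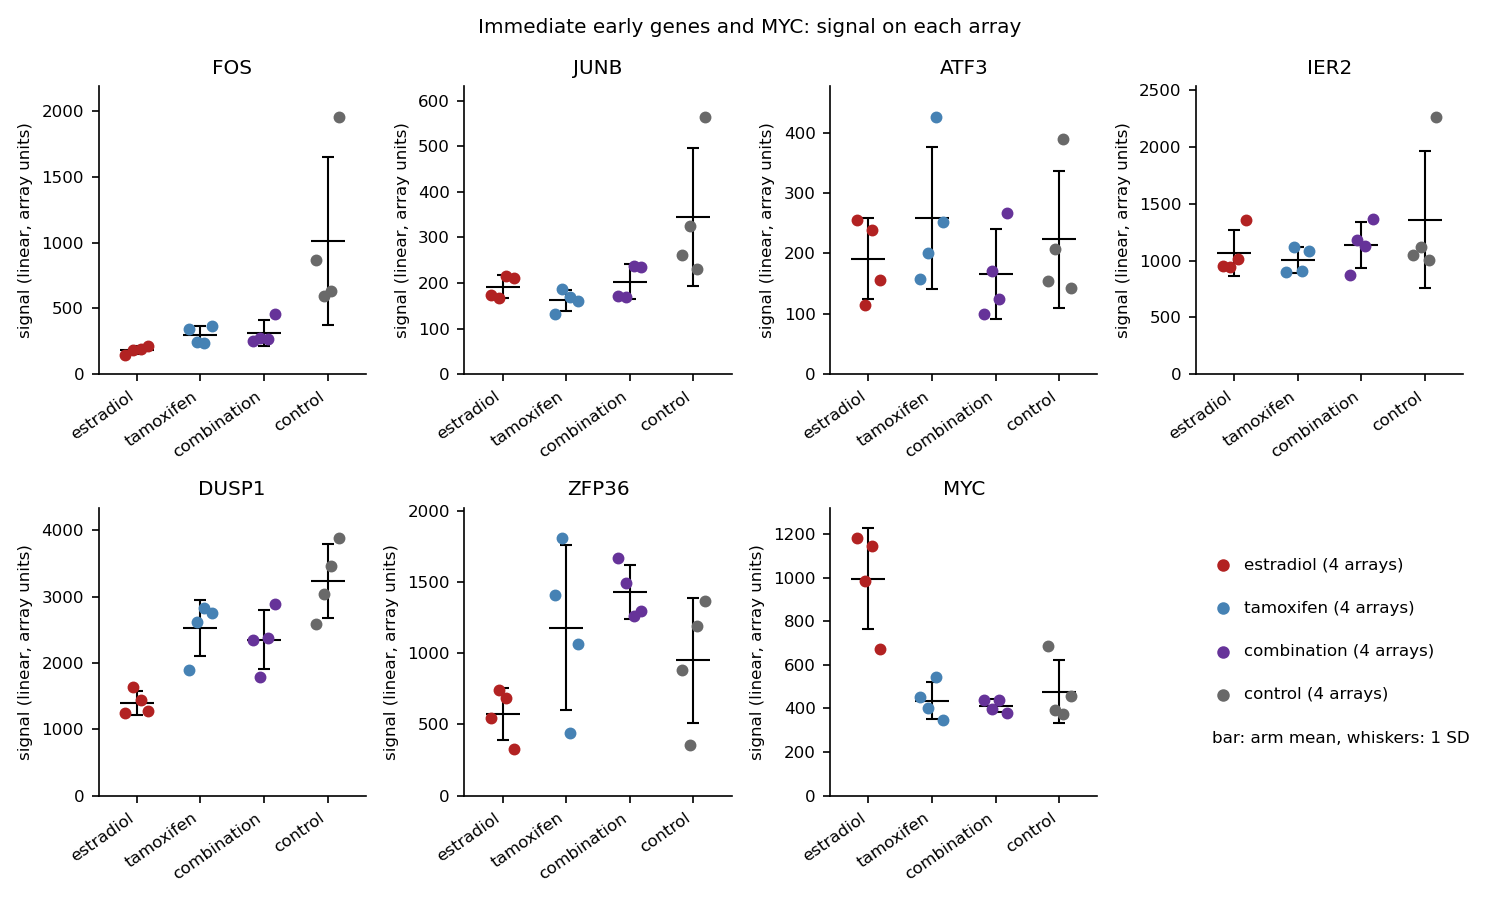
Linear signal (array units, vertical axes from 0) of the brightest probe set of FOS, JUNB, ATF3, IER2, DUSP1, ZFP36 and MYC in 4 arms of 4 arrays. Points are arrays, bars are arm means and whiskers are 1 SD. All control arrays lie above all treated arrays for FOS, and the estradiol arm is the highest for MYC and the lowest for FOS and DUSP1.

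FOS encodes a subunit of AP-1. Its signal was 147, 184, 195 and 212 on the 4 estradiol arrays, 347, 242, 238 and 363 on the tamoxifen arrays, and 256, 272, 265 and 460 on the combination arrays, against 868, 596, 633 and 1957 on the control arrays. No treated array reached the lowest control, as was so for 13.0%, 11.6% and 13.9% of all genes with estradiol, tamoxifen and the combination. Nor did an estradiol array reach the lowest tamoxifen or combination array, as was so for 2.57% and 4.06% of all genes. Mean signal was 184 ± 27.6 with estradiol, 298 ± 66.7 with tamoxifen and 313 ± 98.0 with the combination, and 1014 ± 640.0 in control (SD, n = 4 each), so control was 5.50, 3.41 and 3.24 times as high. On the log2 scale FOS fell by 2.26 with estradiol (SE 0.31, limma adjusted p = 0.000190), by 1.60 with tamoxifen (adjusted p = 0.00448) and by 1.55 with the combination (adjusted p = 0.00437). Whether this is fewer cells that make FOS mRNA or less of it per cell cannot be told apart in whole tissue.

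The fall of FOS was among the larger ones on the array. Of all 10706 genes tested, 19 had a lower change than FOS with estradiol, 31 with tamoxifen and 41 with the combination. One control array, control 4, was well above the others at 1957. Without it the changes were -1.89, -1.23 and -1.17, and all 3 still passed the test.

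JUNB, another AP-1 subunit, had 175, 166, 216 and 212 with estradiol, 132, 186, 170 and 160 with tamoxifen, and 171, 168, 236 and 235 with the combination, against 261, 326, 231 and 564 in control. The estradiol and tamoxifen arrays lay below every control array, as in 13.0% and 11.6% of all genes, and 2 combination arrays lay just above the lowest control. JUNB fell by 0.75 with estradiol (SE 0.23, limma adjusted p = 0.0253) and by 0.99 with tamoxifen (adjusted p = 0.0114). With the combination its change was -0.69 and missed the threshold (adjusted p = 0.0533). Without control 4 the estradiol change was -0.49 and was no longer called (adjusted p = 0.0652), while that of tamoxifen was -0.73 and was called. The combination change without control 4 was -0.42 (adjusted p = 0.134). The estradiol call was also lost without estradiol 1 or 2, with an adjusted p of up to 0.0710, and with only the arms compared in the fit (adjusted p = 0.0754).

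ATF3, a related factor that stress induces, had 255, 114, 239 and 156 with estradiol, 157, 199.9, 426 and 252 with tamoxifen, and 99.2, 172, 124 and 267 with the combination, against 154, 207, 389 and 143 in control. All 4 arms overlapped, and the highest array of an arm was 2.23 to 2.71 times its lowest. Its changes against control were -0.17, 0.23 and -0.40 with estradiol, tamoxifen and the combination (SE 0.38 each), with 95% intervals from -0.98 to 0.64, from -0.59 to 1.04 and from -1.21 to 0.41. The second ATF3 probe set moved by -0.34, -0.02 and -0.32, none called, so the tamoxifen sign differed between the probe sets. The third, with a mean signal of 16.2, did not pass the filter.

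IER2, a small nuclear protein gene of the class, had 948, 945, 1013 and 1360 with estradiol, 900.0, 1118, 909 and 1086 with tamoxifen, and 872, 1184, 1126 and 1366 with the combination, against 1052, 1122, 1005 and 2264 in control. The arms overlapped, and a single control array stood above the rest. The changes were -0.28 with estradiol, -0.36 with tamoxifen and -0.19 with the combination (SE 0.22, limma adjusted p = 0.385, 0.302 and 0.605). Without control 4 the estradiol change was -0.01 and that of tamoxifen -0.08.

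DUSP1 encodes a phosphatase that switches MAP kinases off. Its signal was 1246, 1644, 1442 and 1277 with estradiol, 1901, 2617, 2829 and 2754 with tamoxifen, and 2353, 1795, 2378 and 2886 with the combination, against 2586, 3036, 3463 and 3878 in control. The estradiol arrays lay below all arrays of the other 3 arms, while the tamoxifen and combination arrays overlapped with control. Of all genes, 13.0% lay wholly below control with estradiol. Wholly above the estradiol arrays lay 2.57% with tamoxifen and 4.06% with the combination. DUSP1 fell by 1.20 with estradiol (SE 0.16, limma adjusted p = 0.000189), a control mean 2.31 times that of estradiol. With tamoxifen and the combination its changes were -0.36 and -0.46 (adjusted p = 0.157 and 0.0659).

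The dimmer DUSP1 probe set also fell with estradiol, by 0.67 (SE 0.20, limma adjusted p = 0.0213). Its signal was 86.2, 68.2, 63.5 and 76.9 with estradiol, 123, 115, 151 and 117 with tamoxifen, and 92.6, 104, 94.5 and 128 with the combination, against 75.9, 143, 123 and 151 in control. On this probe set the estradiol arrays again lay below those of tamoxifen and the combination, but 1 control array lay within their range. Against estradiol it was higher by 0.48 with the combination (adjusted p = 0.248) and by 0.74 with tamoxifen (adjusted p = 0.113), neither called.

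ZFP36 encodes tristetraprolin, which binds AU-rich mRNAs, among them those of cytokines and of the class itself, and speeds their decay. Its signal was 542, 740.1, 682 and 331 with estradiol, 1405, 1805, 438 and 1062 with tamoxifen, and 1670, 1489, 1263 and 1297 with the combination, against 884, 359, 1188 and 1365 in control. The combination arrays were close together, whereas the highest array was 4.12 times the lowest with tamoxifen and 3.80 times in control. ZFP36 had the widest residual spread of the 7 genes, with an SD of 0.67 on the log2 scale, against 0.25 for DUSP1, the narrowest. Its changes were -0.62 with estradiol, 0.30 with tamoxifen and 0.74 with the combination (SE 0.42, limma adjusted p = 0.308, 0.692 and 0.255).

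MYC went the other way. Its signal was 1179, 983, 1146 and 673 with estradiol, 453, 404, 542 and 346 with tamoxifen, and 437, 397, 437 and 381 with the combination, against 687, 392, 376 and 456 in control. Of the estradiol arrays, 3 were above every other array of the study, and estradiol 4, the array with little muscle signal, lay just below the highest control. Mean signal was 995 ± 232 with estradiol, 436 ± 83.1 with tamoxifen and 413 ± 28.6 with the combination, and 478 ± 144 in control (SD, n = 4 each). MYC rose by 1.06 with estradiol (SE 0.20, limma adjusted p = 0.00172), and its changes with tamoxifen and the combination were -0.10 and -0.17 (adjusted p = 0.778 and 0.623). Of all 10706 genes tested, 516 had a higher change than MYC with estradiol.

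**Figure D2:**
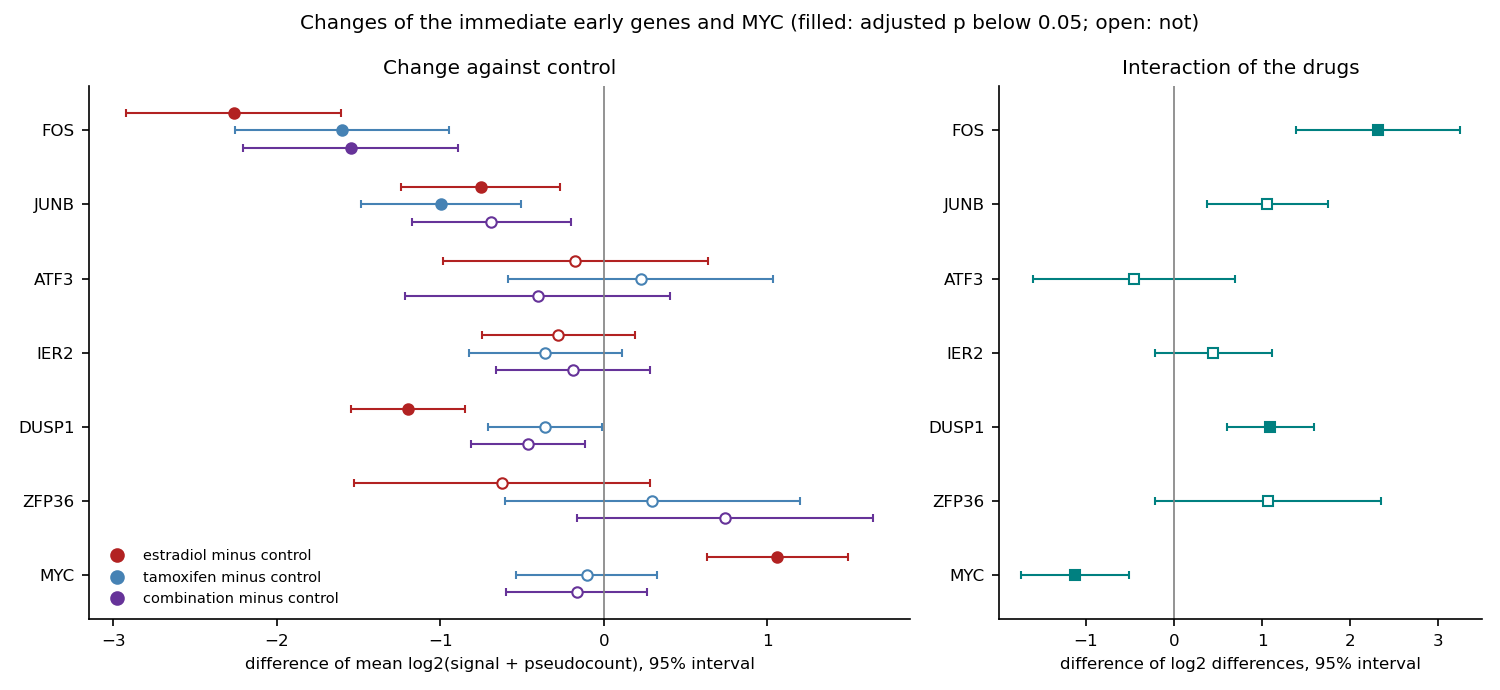
Left, difference of mean log2(signal + 4.80) from control for the 7 genes, with 95% intervals, for estradiol, tamoxifen and the combination. Right, the interaction of the drugs on the same scale. Filled symbols passed an adjusted p of 0.05: FOS in all 3 comparisons with control, JUNB in 2, DUSP1 and MYC with estradiol only, and FOS, DUSP1 and MYC for the interaction.

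With tamoxifen added to estradiol, DUSP1, by its brightest probe set only, was higher and MYC lower than with estradiol alone. That is 1 of 7 genes called in each direction, where 0.448% of all genes were called higher and 0.878% lower in the combination than in the estradiol arm. DUSP1 was higher by 0.73 (SE 0.16, limma adjusted p = 0.0423) and MYC lower, by a change of -1.23 (SE 0.20, adjusted p = 0.0149). No array of the combination overlapped with one of estradiol for DUSP1, ZFP36 and FOS, all higher, or for MYC, lower. In all, 4.06% of genes lay wholly above and 6.38% wholly below in that comparison. FOS (0.72, adjusted p = 0.270) and ZFP36 (1.36, adjusted p = 0.123) were not called. The DUSP1 call is a narrow one: it was lost in 9 of the 16 fits without 1 array, with an adjusted p of up to 0.148, while that of MYC was lost in 1, without estradiol 1 (adjusted p = 0.0629).

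Tamoxifen alone against estradiol alone gave the same calls, which rest on the same estradiol arrays. DUSP1 was higher by 0.84 on its brightest probe set (limma adjusted p = 0.0329) and MYC lower, at -1.17 (adjusted p = 0.0289), 1 of 7 genes each way, where 0.149% of all genes were called higher and 0.560% lower. DUSP1 and FOS lay wholly above the estradiol arrays and MYC wholly below, as did 2.57% and 4.55% of all genes, but FOS at 0.66 was not called (adjusted p = 0.383). DUSP1 and MYC each lost their call in 5 of the 16 fits without 1 array, with adjusted p up to 0.142 and 0.109.

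The combination and tamoxifen alone were not separated by the test. None of the 7 genes was called in either direction, and 0% of all genes were. At an unadjusted p under 0.05, again 0 of the 7 passed, a count given without the share of all genes. The 7 changes were between -0.63 (ATF3, 95% interval from -1.44 to 0.18) and 0.44 (ZFP36, from -0.46 to 1.35). The 95% interval of the difference was from -0.60 to 0.71 for FOS, from -0.45 to 0.24 for DUSP1 and from -0.49 to 0.37 for MYC.

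The interaction asks whether the tamoxifen change differs with estradiol present: the combination minus estradiol, less tamoxifen minus control. FOS and DUSP1 were called higher and MYC lower, 2 and 1 of 7 genes, where 4.77% of all genes were called higher and 6.55% lower. For FOS the interaction was 2.32 (SE 0.44, limma adjusted p = 0.00635): the changes under each drug alone add up to -3.86, and the combination had -1.55. For DUSP1 it was 1.09 (SE 0.23, adjusted p = 0.0108), with a sum of -1.56 and a combination change of -0.46. For MYC it was -1.12 (SE 0.29, adjusted p = 0.0248), with a sum of 0.96 against -0.17. JUNB, at 1.06, missed the threshold (adjusted p = 0.0510). On the dimmer DUSP1 probe set the interaction was 0.41 and not called (adjusted p = 0.386).

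The order of the arms thus differed between genes, though few neighbours in it could be separated. FOS was lowest with estradiol, then tamoxifen and the combination, then control, and of these neighbours the test separated the combination from control. DUSP1 had the order estradiol, combination, tamoxifen, control, and the step between combination and estradiol was called. MYC had the order combination, tamoxifen, control, estradiol, and the step between estradiol and control was called. For JUNB (tamoxifen, estradiol, combination, control), IER2 (the same order), ATF3 (combination, estradiol, control, tamoxifen) and ZFP36 (estradiol, control, tamoxifen, combination) no neighbours were separated.

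**Figure D3:**
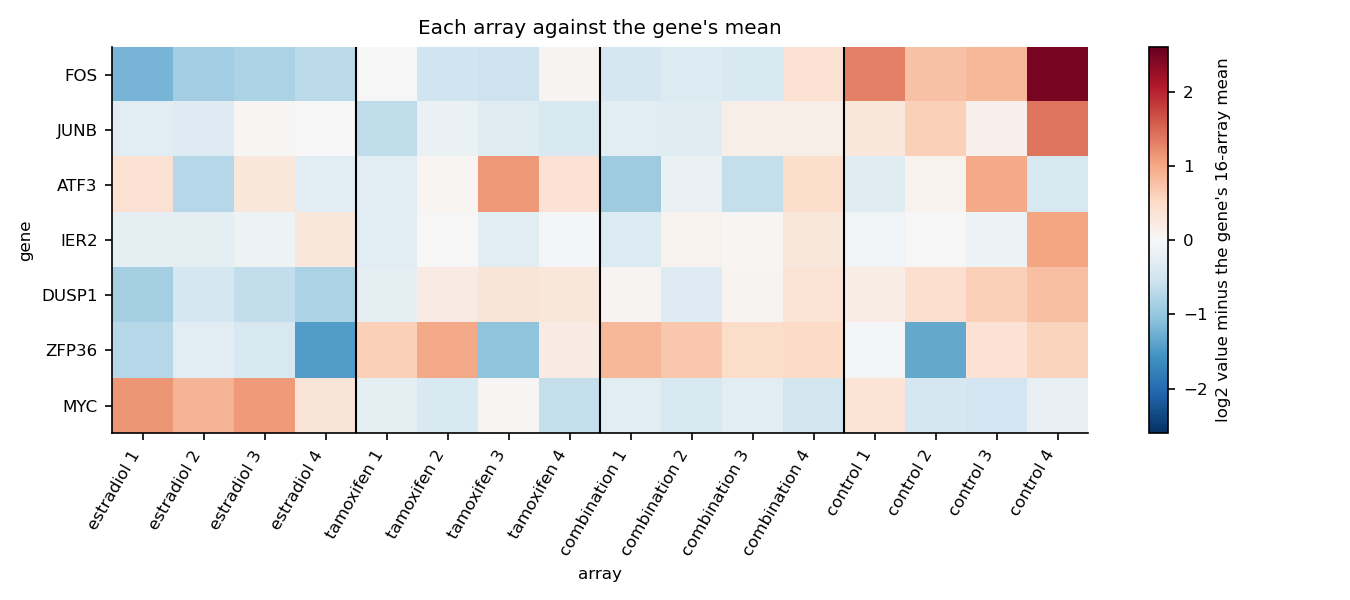
Log2 value of each array minus the gene's mean over all 16 arrays, for the 7 genes (vertical) and the arrays in 4 arms (horizontal); red is above and blue below the mean. Control 4 is the reddest column for FOS, JUNB and IER2, and the estradiol columns are blue for FOS and DUSP1 and red for MYC.

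Of the 6 genes other than MYC, each by its brightest probe set, control 4 had the highest value of its arm for 5 and the lowest for ATF3. On the second ATF3 probe set control 4 was instead the highest control, at 153 against 105 to 123. Combination 4 had the highest value of its arm for 4 of the 6, again by the brightest probe sets. With estradiol and tamoxifen the highest values were spread more evenly, with at most 2 of the 6 on 1 estradiol array and at most 3 on 1 tamoxifen array. Among 26 other immediate early genes, the most often highest array of each arm was estradiol 3 for 11, tamoxifen 2 for 10, combination 4 for 10 and control 4 for 11. The log2 ratio of 3' to 5' actin probes, a measure of RNA integrity, was 0.76 on control 4 and 0.93 to 1.02 on the other controls. Control 4 also had the lowest summed heat shock signal of the controls, 19296 of a range up to 22798, and the highest summed endothelium signal, 9319. Over all 16 arrays, after centring each gene on its mean, the most alike pair of the 7 was JUNB and IER2, with a root-mean-square difference of 0.29 on the log2 scale, and the least alike was FOS and MYC, with 1.29.

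Several marker sums moved with the arms, and their part in the changes above was not tested. Endothelium markers summed to 4142 to 6968 with estradiol, 4932 to 7886 with tamoxifen and 5639 to 7550 with the combination, against 7794 to 9319 in control, and 8, 1 and 1 of the 12 tested were called lower. In these comparisons 13.2%, 7.64% and 9.09% of all genes were called lower and 16.5%, 8.59% and 10.6% higher, so 1 of 12 is near the share of all genes. Epithelium markers summed to 7407 to 12694, 7007 to 13505 and 7761 to 9989 in the same arms, against 5434 to 5877 in control. Of the 10 tested, 5, 3 and 5 were called higher and 0 lower in each. Stroma markers summed to 51959 to 58902, 41307 to 55352 and 37721 to 50207, against 35198 to 37921. Of the 11 tested, 6, 4 and 4 were called higher and 0, 0 and 1 lower. T and NK cell markers summed to 2287 to 4905 with estradiol, 2448 to 3777 with tamoxifen and 1619.8 to 3123 with the combination, against 3508 to 5819 in control, and 1, 4 and 5 of the 6 tested were called lower. Macrophage and monocyte markers summed to 4673 to 9044, 7003 to 13619 and 8929.5 to 15074 in these arms, against 4804 to 7106 in control, so that the combination arrays lay wholly above control. Of their 12 tested genes, 0, 1 and 1 were called higher and 0, 0 and 1 lower. By sign, 8, 10 and 10 of the 12 were below 0, with median changes of -0.15, -0.26 and -0.42. Most single markers thus did not rise with the sums. LYZ had the highest mean signal of them, 4264 over all arrays. The 3' to 5' actin ratio, on the log2 scale, averaged 0.57 ± 0.18, 0.52 ± 0.04 and 0.55 ± 0.08 in the treated arms, against 0.92 ± 0.11 in control (SD, n = 4 each). Single arrays were at 0.41 to 0.83, 0.47 to 0.57 and 0.48 to 0.64, against 0.76 to 1.02 in control. This measure of RNA integrity thus differed between control and treatment, and its part in the changes above was not tested either. Without estradiol 4 and tamoxifen 1 together, the calls of FOS, JUNB, DUSP1 and MYC against control and the interactions of FOS, DUSP1 and MYC all stood.

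Of 39 further immediate early gene symbols, with older names counted, 26 were tested. This list too was chosen with earlier results of these data known. Estradiol lowered 11 and raised 2, where 13.2% of all genes were called lower and 16.5% higher. Tamoxifen lowered 7 and raised 1 (7.64% and 8.59% of all genes), and the combination lowered 7 and raised 1 (9.09% and 10.6%). Median changes were -0.44, -0.18 and -0.25, where those over all genes tested were 0.01, -0.02 and -0.01. By smallest p, the genes lowered by estradiol were led by SIK1, a kinase gene induced by cAMP (-1.42, limma adjusted p = 0.000417), CEBPD (-1.22), KLF6 (-1.16), both transcription factor genes, and ZFP36L1, a relative of ZFP36 (-0.66). TIPARP, a target of the aryl hydrocarbon receptor, rose in all 3 arms, by 0.63, 0.76 and 0.88, and CSRNP1 rose with estradiol, by 0.59 (named after its values were seen). Without control 4, left out after seeing the data, the counts lower were 8, 5 and 5, and those higher did not change.

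FOSL2, the other FOS family gene tested, also fell in all 3 treated arms (named after its values were seen). Its mean signal was 789 ± 223 with estradiol, 655 ± 128 with tamoxifen and 896 ± 106 with the combination, and 1399 ± 167 in control (SD, n = 4 each). The changes were -0.85, -1.10 and -0.64 (limma adjusted p = 0.00308, 0.00166 and 0.0244), and the interaction was 1.31 (adjusted p = 0.00687). The combination call was lost without control 1, 2 or 4 or combination 1 or 4, with an adjusted p of up to 0.0664. JUND, the JUN family gene that cells express without a stimulus, had changes of 0.19, 0.32 and 0.25, none called (also named after its values were seen). For the interaction, 7 of the 26 genes were called higher and 1, CSRNP1, lower (4.77% and 6.55% of all genes), with FOSL2, CEBPD (1.35), SIK1 (1.47) and the stress gene GADD45B (0.94) at the smallest p. Between combination and estradiol 1 gene of the 26 was called, where 0.448% of all genes were called higher and 0.878% lower. It was CCN2, a matrix signalling protein gene, higher by 0.77 (limma adjusted p = 0.0411) on its brightest probe set. The other CCN2 probe sets did not follow it, with means of 557 and 64.6 in the combination and 601 and 103 in the estradiol arm.

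Feedback genes of the ERK branch of the MAP kinases were measured as mRNA only. Of the 9 tested, 3, 1 and 1 had a change below 0 with estradiol, tamoxifen and the combination, and the median changes were 0.26, 0.28 and 0.28, where the medians over all genes tested were 0.01, -0.02 and -0.01. Estradiol raised PHLDA1 (1.83, limma adjusted p = 0.000125) and the ERK inhibitor gene SPRY4 (1.34), and lowered its relative SPRY1 (-0.72). The combination raised PHLDA1 (1.05) and SPRY4 (1.17). Tamoxifen changed 0 of the 9 by limma, with 4 at an unadjusted p under 0.05, a count given without the share of all genes. Of 7 tested genes for serum response factor partners and CREB factors, MRTFB, a coactivator of serum response factor, fell by 0.40, 0.38 and 0.44 with estradiol, tamoxifen and the combination. ATF2, a factor of the CREB and ATF family, rose with tamoxifen, by 0.99, and no other gene of that list was called against control. Of 9 heat shock genes, which encode chaperones and their partners, HSPA8 rose in all 3 arms (0.40, 0.35 and 0.28). DNAJB1 fell with estradiol (-0.31) and the combination (-0.42), HSP90AA1 rose with the combination (0.80), and no other was called against control. Among all genes, 16.5% were called higher and 13.2% lower with estradiol, 8.59% and 7.64% with tamoxifen, and 10.6% and 9.09% with the combination. A single call in a list of 7 or 9 genes therefore says little about the list.

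**Figure D4:**
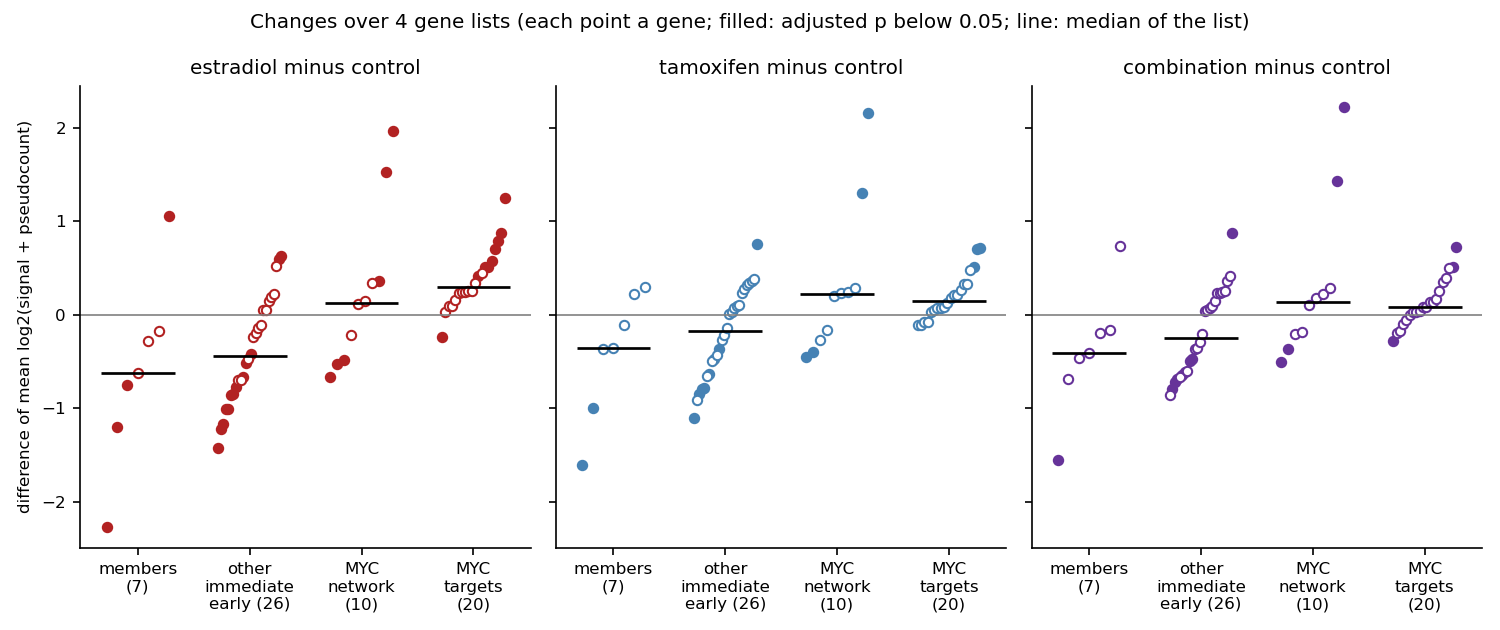
Difference of mean log2(signal + 4.80) from control for the 7 genes of the list, 26 other immediate early genes, 10 genes of the MYC network and 20 MYC target genes, in 3 panels for estradiol, tamoxifen and the combination. Each point is a gene, filled where adjusted p was below 0.05, and lines are medians; the median of the 7 genes is below 0 in each panel and that of the MYC targets above.

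MYC acts as a dimer with MAX, against MXD and MNT proteins that pair with MAX too. Of 10 network genes tested, 3 rose and 3 fell with estradiol (16.5% and 13.2% of all genes), 2 rose and 2 fell with tamoxifen (8.59% and 7.64%), and 2 rose and 2 fell with the combination (10.6% and 9.09%). With estradiol these included MXD3, which rose by 0.36, and MLXIP, which changed by -0.53 (both named after their values were seen). The probe sets of MAX differed (also named after its values were seen). Its brightest averaged 6111 with the combination and 5666 in control. The others averaged 4212, 2164, 593 and 214 with the combination, against 5134, 2616, 784 and 265 in control. With estradiol and with tamoxifen, some of these others were below control and some above. The MYC paralogs MYCN and MYCL rose in every treated arm, unlike MYC. MYCN had 1098, 1430, 786 and 2638 with estradiol, 2970, 745, 1710 and 1474 with tamoxifen, and 1575, 1748, 1627 and 1491 with the combination, against 506, 223, 554 and 215 in control. Every treated array lay above every control array, as in 15.4%, 11.2% and 15.2% of all genes in these comparisons, and MYCN rose by 1.96, 2.16 and 2.22 (SE 0.42, limma adjusted p = 0.00336, 0.00448 and 0.00294). MYCN had 3 probe sets, and the mean of each was higher in each treated arm than in control.

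MYCL had 194, 208, 107 and 305 with estradiol, 276, 92.5, 176 and 156 with tamoxifen, and 158, 176, 206 and 172 with the combination, against 73.8, 55.3, 59.7 and 64.3 in control. Here too all treated arrays lay above all control arrays. MYCL rose by 1.53, 1.31 and 1.43 (limma adjusted p = 0.00189, 0.0105 and 0.00547). A second MYCL probe set did not pass the filter, and its mean signal, 27.6, 25.6 and 26.5 in the treated arms and 35.7 in control, did not follow the first. Both MYCN and MYCL were highest on estradiol 4 and tamoxifen 1 in their arms, the arrays with the highest summed epithelium signal, 12694 and 13505. Without both arrays MYCN rose by 1.64 with estradiol and 1.84 with tamoxifen, and MYCL by 1.31 and 1.06, all called.

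MXI1 and, by its brightest probe set, MGA fell in every treated arm, and the products of both pair with MAX and oppose MYC. MXI1 averaged 1893 ± 377 with estradiol, 2169 ± 179 with tamoxifen and 2089 ± 233 with the combination, and 2960 ± 262 in control (SD, n = 4 each), changes of -0.66, -0.45 and -0.50. The brightest MGA probe set changed by -0.48, -0.40 and -0.37, all called. Another MGA probe set did not follow it, with means of 205 ± 47.9 with estradiol, 299 ± 33.8 with tamoxifen and 258 ± 64.9 with the combination, and 287 ± 175 in control (SD, n = 4 each), and changes of -0.09, 0.46 and 0.23, none called.

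**Figure D5:**
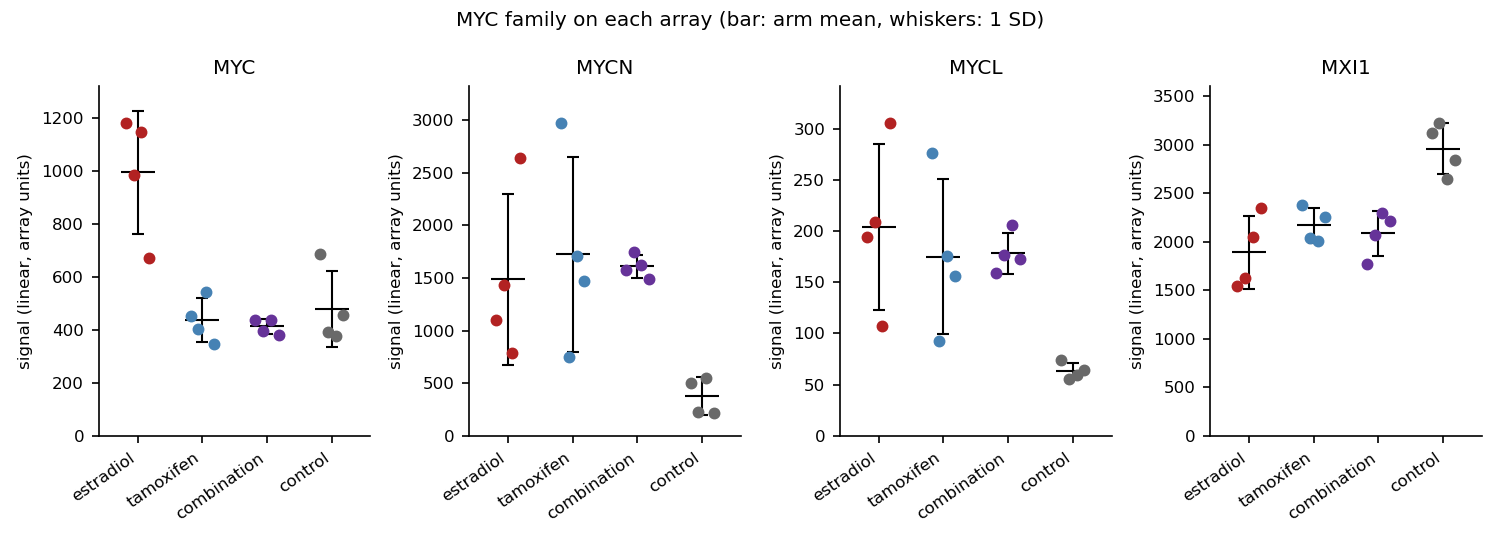
Linear signal (array units, vertical axes from 0) of MYC, MYCN, MYCL and MXI1 in 4 arms of 4 arrays. Points are arrays, bars are arm means and whiskers are 1 SD. MYCN and MYCL are above all control arrays in each treated arm, MYC is high with estradiol, and MXI1 is highest in control.

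Among 20 textbook MYC target genes, mostly of ribosome assembly, estradiol raised 8 and lowered 1, where 16.5% of all genes were called higher and 13.2% lower. Tamoxifen raised 3 and lowered 0 (8.59% and 7.64% of all genes). The combination raised 2 and lowered 1 (10.6% and 9.09%), shares near those of all genes. The genes with the smallest p for estradiol were SRM, a polyamine synthesis enzyme (1.25, limma adjusted p = 0.00107), BOP1 (0.79) and MRTO4 (0.88), both of ribosome assembly, and LDHA, lactate dehydrogenase (0.51). Tamoxifen raised MRTO4, BOP1 and SRM (0.71, 0.51 and 0.70), and the combination raised SRM (0.72) and RRP9 (0.51). The 1 lowered gene was NPM1, at -0.24 with estradiol and -0.28 with the combination. Median changes were 0.30, 0.15 and 0.08. The combination was below estradiol in 20 of the 20 by sign, with a median of -0.26, where the median over all genes tested was -0.02. The 20 signs rest on the same estradiol and combination arrays, so they do not replicate each other. By limma 0 of them were called, and 10 had an unadjusted p under 0.05, a count given without the share of all genes. The interaction was called lower for 3 of the 20, BOP1, MRTO4 and SRM, at -0.95, -1.09 and -1.23, where 6.55% of all genes were called lower. Without control 4, left out after seeing the data, the counts higher were 6, 1 and 1.

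The genes whose centred profile over the 16 arrays was closest to that of FOS, by root-mean-square difference among 10699 genes outside the list, were C1QTNF7 (0.50), L3MBTL3, TOX3, PTCHD1 and ABTB1 (0.53). Their changes with estradiol were between -1.34 and -1.67, each less than that of FOS. Closest to MYC were SEC24D (0.30), CENPN, GUCY1A2, UCK2 and ADK (0.34). Their changes with estradiol were between 0.56 and 0.89, and with tamoxifen between -0.71 (CENPN) and 0.20 (GUCY1A2). These are descriptions of arrays that share arms, with no test.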

How the data were processed

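Per the labels' protocols, total RNA of endometrium was amplified, biotin-labelled and hybridised to 1-colour Affymetrix rhesus macaque arrays. The authors deposited linear intensity values, 0.0242 to 23401 across 52865 probe sets. GCOS, Affymetrix Expression Console and MAS5 are the tools given in the submitters' processing notes. With 2% of values trimmed from either tail, the mean was 250.0 on each of the 16 arrays, so no further normalization was applied, and changes are relative to the array's total. Median signals were 58.7 to 70.3. The number of arrays limits the precision, and the labels name no scan or hybridisation batch.

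After removal of 99 control probe sets, values were taken to log2(signal + 4.80), the pseudocount being the 10th percentile of all values, which understates changes of dim genes. A filter removed the dimmest 40% by 16-array mean. A mean per arm was fitted with limma 3.58.1 in R 4.3.3 (12 residual degrees of freedom, 7 comparisons, eBayes with trend) and tested on simulated data. In the platform annotation 24956 probe sets have a single symbol, 361 have several and 27449 lack one. A gene outside the list was followed by its brightest probe set. Probe sequences were not used, so cross-hybridisation with cynomolgus transcripts or related genes was not examined.

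The members and all gene lists were chosen with earlier results of these data known. Genes of other lists are named by the smallest p, at most 4 per comparison, and exceptions are marked. Genes like FOS and MYC are the 5 with the smallest root-mean-square difference. Replicate numbers are not said to pair animals, so the fit has no block. Of 24 same-numbered pairs, 0 correlated above 0.1 once arm means were removed, which does not settle whether the numbers mark a pairing. Alternatives were other pseudocounts, filters, scalings and variance models, subsets of arrays, and every probe set of a member counted.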

Additional observations from a re-analysis of the deposited data

Results flagged for a closer look

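On combination 4 the FOS signal was 460, against 256 to 272 on the other combination arrays, a gap of 0.894 of the arm's log2 range. On control 4 the IER2 signal was 2264, against 1005 to 1122 on the other controls, a gap of 0.865. Both gaps are above Dixon's 95% critical value for 4 arrays. Over 40 arms of single probe sets examined, chance gives about 1 in 20, and 2 were seen. The tamoxifen change differed with estradiol present, by the interaction test, for FOS (2.32), DUSP1 (1.09) and MYC (-1.12).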

How the results depend on the processing

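The calls of FOS, DUSP1 and MYC with estradiol, of FOS with tamoxifen and the combination, of JUNB with tamoxifen, and the interactions of FOS and DUSP1 stood under every alternative run for them, except that the interaction on the dimmer DUSP1 probe set was 0.41 and not called (adjusted p = 0.386). For the combination against control, where 1 member was called, 2 were called with the 60% dimmest probe sets left out, 2 without estradiol 4 and tamoxifen 1 together, 3 with array weights and 1 to 2 without 1 array. JUNB or DUSP1 made the difference. For the combination against estradiol, with 2 members called, 1 was called with no filter on dim probe sets, with no trend of variance, without estradiol 4 and tamoxifen 1, and with only the arms compared in the fit, and 0 to 2 without 1 array (0 without estradiol 1). DUSP1 lost that call without control 3, estradiol 1, 2 or 4, tamoxifen 3 or 4, or combination 1, 3 or 4. For tamoxifen against estradiol, with 2 called, 1 was called with no trend, 0 with only the arms compared, and 0 to 2 without 1 array. DUSP1 lost that call without estradiol 1 or 4 or tamoxifen 2, 3 or 4, and MYC without estradiol 1 or 2 or tamoxifen 2, 3 or 4. The MYC interaction was lost without estradiol 1 (adjusted p = 0.0553). With a replicate block, the members called were 4 for estradiol, 2 for tamoxifen and 2 for the combination against control, 4 for the interaction, and 2 for either tamoxifen arm against estradiol. The correlations of same-numbered arrays ranged up to 0.09, and 1 of 16 arrays was closest to its own number. Neither value settles whether the numbers mark a pairing.

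Uncalled changes turned sign in some fits without 1 array. Against control these ranged from -0.34 to 0.13 for ATF3 with estradiol, and with tamoxifen from -0.043 to 0.53 for ATF3, from -0.11 to 0.71 for ZFP36 and from -0.21 to 0.083 for MYC. With the combination they ranged from -0.30 to 0.084 for IER2 and from -0.27 to 0.021 for MYC. For the combination against estradiol they ranged from -0.014 to 0.15 for JUNB and from -0.0038 to 0.21 for IER2, and for the combination against tamoxifen from -0.14 to 0.16 for FOS, from -0.23 to 0.019 for DUSP1 and from -0.17 to 0.048 for MYC. For tamoxifen against estradiol IER2 ranged from -0.13 to 0.044, with 0.027 under array weights and 0.093 without estradiol 4 and tamoxifen 1. The cause was not tested.

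The number of all probe sets called moved too. It was 4214 for tamoxifen against control, 2716 without tamoxifen 1 and 2714 with only the arms compared. For the combination against control it was 5015, and 3124 without combination 1. For the combination against estradiol it was 385, with 46 to 1135 without 1 array, 221 with no filter, 214 with medians set equal, 1687 with array weights and 93 with only the arms compared. For tamoxifen against estradiol it was 180, with 0 to 615 without 1 array, 718 with array weights and 0 with only the arms compared. The interaction had 3019, and 1803, 1874 and 1872 without estradiol 1, estradiol 2 or combination 3.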
